A study of Homo sapiens with 16 samples.

Results

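PANC-1 is a cell line established from a human pancreatic ductal adenocarcinoma, and gemcitabine is a deoxycytidine analogue that is phosphorylated in the cell, enters DNA and stops its synthesis. The libraries described here are the 4 control and the 4 gemcitabine libraries of this line, 8 of the 16 samples of the series, taken by the cell line and the treatment in their titles. Both groups are PANC-1 cells with no genetic change named. The other 8 libraries are from a different line and were not analysed here. Of 58735 genes in the deposited table of this line, 12508 had an FPKM (fragments per kilobase of gene model, scaled by the submitters for sequencing depth) of at least 1 in at least 4 of these 8 libraries, and these are the genes described. Of these, 256 passed that filter only through gemcitabine libraries and 127 only through controls. Such a gene had to differ, and 253 of the 256 were called higher and 126 of the 127 lower, so these calls, which the counts below include, support nothing. Among genes named below, 26 passed only through gemcitabine libraries, namely CADM1, CEACAM6, COL4A1, COL4A2, CST4, DHRS9, DRAXIN, ECM1, EFNB2, FLRT3, GATA6, ITGB8, KDR, KRT15, KRT81, LAMA3, LAMB3, LCP1, LHX1, MMP10, NOV, NTN1, PRSS1, SERPINE2, TFPI2 and WNT5A, and 5 only through controls, namely BMP4, EPHA7, PPP1R1B, SMAD6 and VCAN. The labels give no dose, no duration, no vehicle and no culture conditions, the line is the only one used here, and no label ties the 4 replicates to cultures of their own. The p-values therefore reflect only how far these libraries differ among themselves, and that spread may be technical.

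RNA was poly-A enriched. The libraries held 22152034 to 31642808 reads in listed genes, and 3 reads on a gene model of 1 kb corresponded to 0.0932 to 0.138 FPKM. The first principal component (70.2% of the variance) parted gemcitabine from control, and the second (20.4%) parted gemcitabine replicate 1 from the rest. Its reads were high for GC-rich transcripts, by a median of 0.45 (log2) against the other 3 of its group in the highest quartile of GC content, and low for those poor in GC (-0.42 in the lowest quartile). In every other library these medians lay between -0.17 and 0.15. Each count below is therefore also given without gemcitabine replicate 1 where the text turns on it.

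The labelled epithelial origin was checked against marker genes. The keratins KRT8 and KRT18, which pair in simple epithelia, were read at 111 to 119 and 123 to 131 FPKM in the controls, and the adhesion molecule EPCAM at 16.1 to 18.9 FPKM. KRT7 and the cadherin CDH1 were low, at most 0.753 and 0.977 FPKM in any control. The mesenchymal markers VIM, FN1, ZEB1 and CDH2 were all read and summed to 279.9 to 309 FPKM in controls and 189.5 to 242 FPKM with gemcitabine. Most markers of other cell types were at or near 0. CD3E, SST, INS and PNLIP had no read in any library, and PTPRC, PECAM1, VWF, CDH5, TEK, PDGFRA, COL1A2, GCG and CPA1 were nowhere above 0.0393 FPKM. The fibroblast markers COL1A1 and THY1 were read, at 10.8 to 11.9 and 5.06 to 5.59 FPKM in controls. Summed over 7 leukocyte markers the level was 1.09 to 1.41 FPKM in controls and 5.66 to 6.84 FPKM with gemcitabine, nearly all of it from LCP1 and CD14. Summed over 5 endothelial markers it was 0.38 to 0.634 FPKM and 3.13 to 3.79 FPKM, nearly all from KDR. Summed over 8 fibroblast markers it was 17 to 18.5 FPKM and 11.1 to 15.9 FPKM, mostly from COL1A1 and THY1, and over 6 acinar and islet markers 0.303 to 0.566 FPKM and 1.07 to 1.6 FPKM, nearly all from PRSS1. The part of other cell types in the results was not tested.

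Gemcitabine went with a broad change of the transcriptome. Genes of desmosomes, of intermediate filaments such as keratins, and of the EGFR family and its ligands rose more often than they fell. Heat shock, lysosomal and HOX genes fell more often than they rose, and genes of the matrix and its proteases changed in both directions. In this tumour type the extracellular matrix is abundant, and the genes by which a carcinoma cell makes matrix, cuts it, holds to it and reads guidance cues from it are studied for invasion. Tested with limma, 2595 of 12508 genes (20.7%) were higher and 3007 (24.0%) lower at an adjusted p under 0.05. Changes (log2) were computed from log2(FPKM + 1), so that those of low genes come out too small, and a fold is the ratio of mean FPKM. Of the genes higher 401 (3.21% of those tested) changed by at least 1 on the log2 scale, and of the genes lower 133 (1.06%). The 4 gemcitabine libraries lay all above or all below the 4 controls in 5725 genes (45.8%). Genes named below, apart from cell type markers and those marked as chosen after their values were seen, had to show such separation. Under this naming rule, groups that lie apart in a named gene add no support. Without gemcitabine replicate 1 the counts were 4102 higher (32.8%) and 4626 lower (37.0%). Of the 5602 calls made from all 8 libraries, 5569 were made again in the same direction. Counts of list members below are to be read against 20.7% and 24.0%, and those without gemcitabine replicate 1 against 32.8% and 37.0%. A list near these shares changed no more often than genes at large. Values after ± are SDs over 4 libraries, or SEs after a log2 change. The median change over all tested genes was -0.02 (log2).

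**Figure D1:**
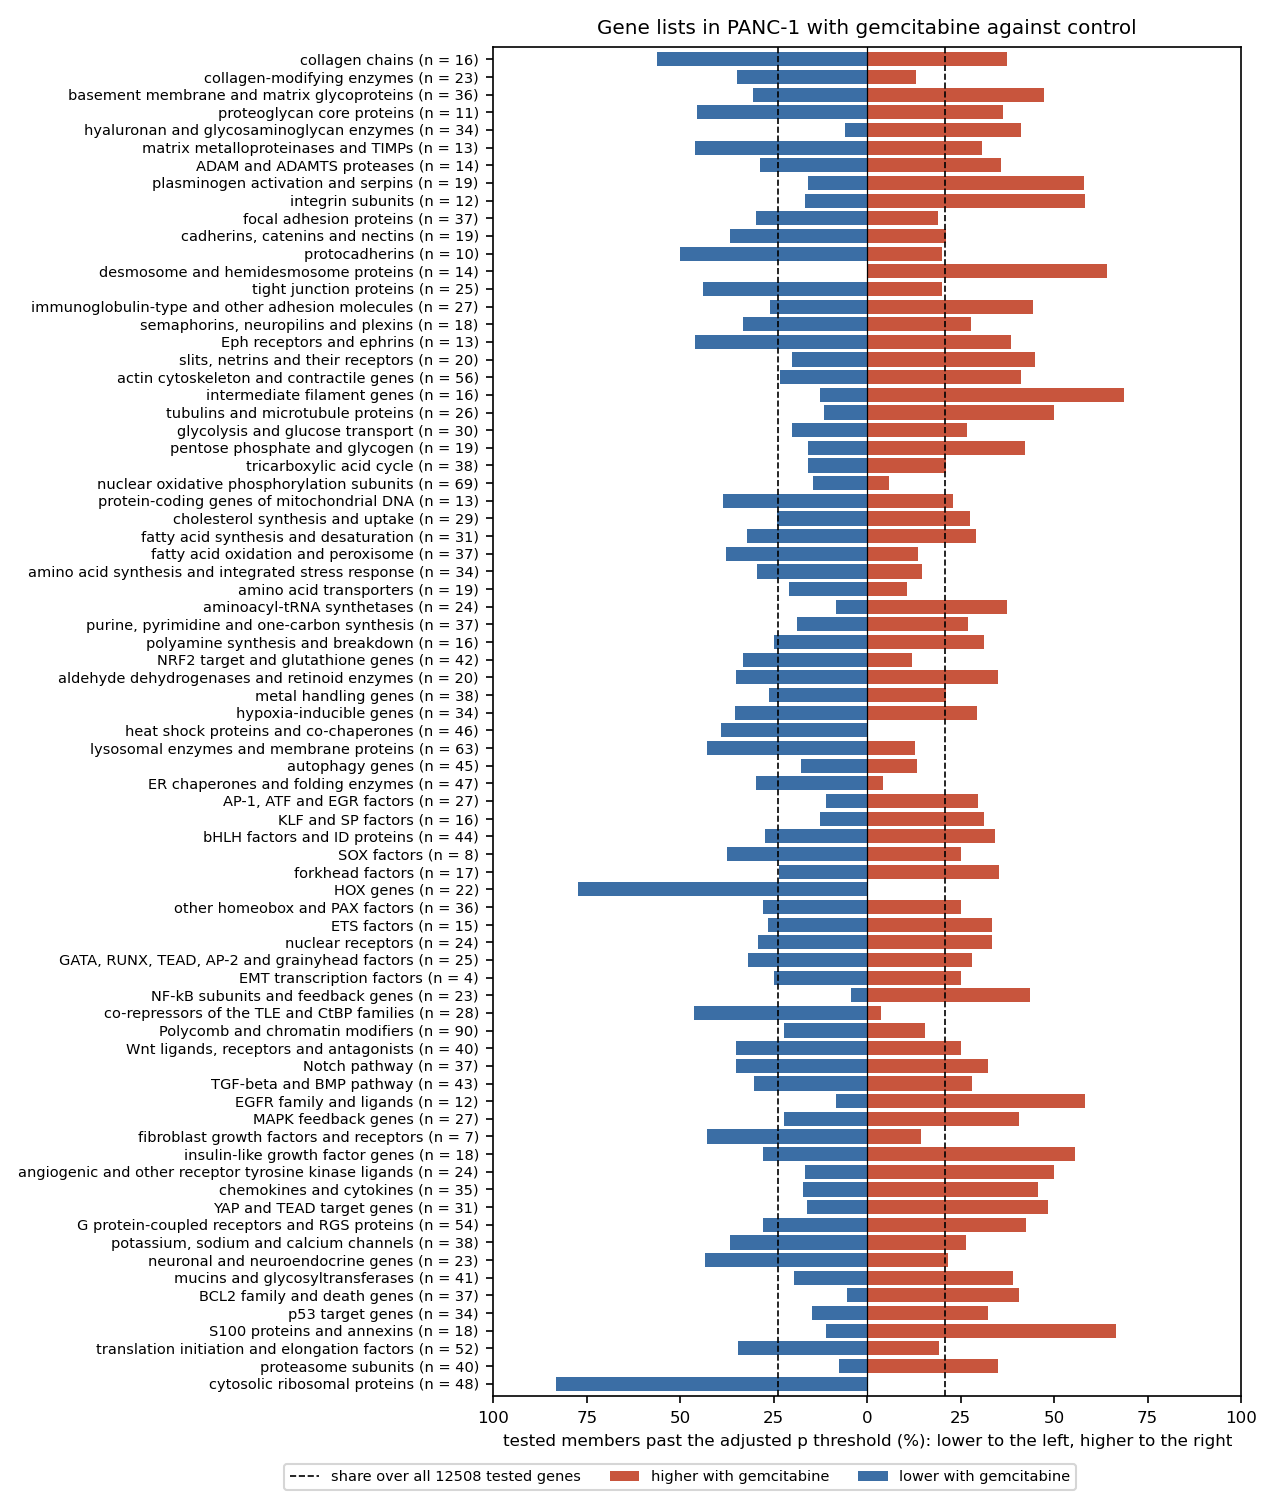
Share of the tested members of each gene list that passed the adjusted p threshold, higher with gemcitabine to the right and lower to the left, with n the number of members tested. Dashed lines mark the shares over all tested genes, 20.7% higher and 24.0% lower, and the HOX genes, the heat shock proteins and the cytosolic ribosomal proteins have no bar to the right.

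The largest rises among protein-coding genes were in secreted and membrane proteins. After MMP1, which encodes an interstitial collagenase, SPNS2, an exporter of sphingosine phosphate, was read at 2.85, 4.03, 3.46 and 3.41 FPKM in the controls and 50.7, 33.0, 33.3 and 32.9 FPKM with gemcitabine, a 10.9-fold rise (log2 change 3.10 ± 0.15, adjusted p = 9.18e-07). TMEM171, a membrane protein of little known function, was read at 1.48, 1.77, 1.38 and 1.27 FPKM in the controls and 21.2, 18.1, 16.6 and 19.3 FPKM with gemcitabine, 12.7-fold higher. In both genes every gemcitabine library lay far above every control, and gemcitabine replicate 1 was close to the other 3 or above them. Other genes among the 12 largest rises were HAS3, CST1, STC1, ADAM19, PRSS3, CST4, NTN4 and NOV. CST1 and CST4 encode secreted cystatins and PRSS3 a trypsinogen, and all 3 have near-identical copies in the genome, so the division of reads among the copies is uncertain. CST4 rose from 0.214 ± 0.121 to 5.81 ± 1.70 FPKM and PRSS3 from 1.07 ± 0.270 to 10.9 ± 1.73 FPKM.

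The 12 largest falls were in RFLNA, TLE2, HSPA6, IFITM1, SEMA3C, BCAM, CREB3L1, PPP1R1B, SAMD11, ELFN1, LPCAT2 and MMP2. PPP1R1B, an inhibitor of protein phosphatase named for its role in dopamine signalling, was read at 4.70, 4.46, 4.91 and 4.52 FPKM in the controls and 0.697, 0.570, 0.499 and 0.532 FPKM with gemcitabine. ELFN1, a leucine-rich repeat protein of synapses, was read at 17.9, 22.0, 19.5 and 17.7 FPKM in the controls and 7.71, 4.19, 4.92 and 4.23 FPKM with gemcitabine. LPCAT2, which makes phosphatidylcholine and platelet-activating factor, was read at 31.0, 29.8, 30.0 and 31.1 FPKM in the controls and 6.16, 9.89, 9.65 and 10.004 FPKM with gemcitabine. The groups did not overlap in these 3 genes, as the naming rule required. SAMD11 fell from 5.86 ± 0.264 to 1.02 ± 0.279 FPKM.

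Measured by mean FPKM rather than by fold, the largest rises were in abundant genes of the cytoskeleton, calcium binding and mitochondria. ACTB, cytoplasmic beta actin, rose from 738 ± 31.5 to 1320.4 ± 205 FPKM, TMSB10, a thymosin that binds actin monomers, from 1431 ± 57.6 to 1954 ± 112 FPKM, and S100A6 from 338 ± 4.99 to 755 ± 90.9 FPKM. PSAP, the precursor of the lysosomal saposins, rose from 1919 ± 28.5 to 2272 ± 208 FPKM. The largest falls in FPKM were in the translation genes RPS16, RPS12 and EEF1A1, in MT-ND2 and MT-ND3 and in FTL, the ferritin light chain, which fell from 2148 ± 81.0 to 1416 ± 118 FPKM. ACTB was read higher in all 4 gemcitabine libraries, so a comparison that used it as a reference gene would give other values.

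Genes of the extracellular matrix changed in both directions, and often. 17 of 36 tested members were higher and 11 lower among basement membrane and matrix glycoproteins (18 and 14 without gemcitabine replicate 1). Of these 17, 4 passed the filter only through gemcitabine libraries and had to come out higher. LAMB3, LAMA3, NOV and ECM1, given below, are genes of this kind, and LAMA4 is not. The laminin chains LAMB3 and LAMA3, named here after their values were seen, rose from a low level, from 0.361 ± 0.0881 to 1.67 ± 0.188 FPKM and from 0.160 ± 0.0218 to 1.09 ± 0.114 FPKM. LAMA4, a laminin chain of vessel and muscle basement membranes, was read at 1.31, 1.46, 1.29 and 1.30 FPKM in the controls and 8.88, 9.59, 9.48 and 9.36 FPKM with gemcitabine, a 6.96-fold rise (log2 change 2.14 ± 0.05, adjusted p = 3.89e-08). Here gemcitabine replicate 1 was the lowest of its group and still above every control. NOV, a matricellular protein of the CCN family, rose from 0.840 ± 0.0840 to 8.84 ± 0.661 FPKM, and ECM1 from 0.887 ± 0.0304 to 3.35 ± 0.714 FPKM.

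Other glycoproteins of the matrix fell. FN1, fibronectin, which links collagen to integrins, was read at 16.6, 18.3, 16.6 and 15.9 FPKM in the controls and 6.67, 5.88, 5.72 and 5.82 FPKM with gemcitabine, 2.80-fold lower (log2 change -1.35 ± 0.07, adjusted p = 9.92e-07). EFEMP1, a fibulin, was read at 13.7, 13.3, 13.9 and 13.9 FPKM in the controls and 5.10, 5.26, 5.64 and 5.15 FPKM with gemcitabine, and LAMC3 fell from 4.37 ± 0.347 to 1.48 ± 0.421 FPKM. MFAP2, a protein of elastic microfibrils, fell from 3.97 ± 0.231 to 1.58 ± 0.684 FPKM. In FN1 and EFEMP1 all 4 gemcitabine libraries lay under the lowest control, as the naming rule required.

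Collagens, the fibrous proteins of the matrix, fell more often than they rose, with 6 of 16 tested members higher and 9 lower and a median change of -0.30 (log2). A further 18 of the 34 collagen genes listed were below the filter. COL13A1, a collagen that spans the plasma membrane, had the largest log2 change of the tested chains and was read at 2.15, 1.90, 1.88 and 1.84 FPKM in the controls and 13.8, 14.6, 13.4 and 13.1 FPKM with gemcitabine, a 7.06-fold rise. The paired basement membrane chains COL4A1 and COL4A2 went from 0.120 ± 0.00525 to 1.11 ± 0.0352 FPKM and from 0.144 ± 0.0274 to 1.52 ± 0.148 FPKM, and passed the filter only through gemcitabine libraries. Falls were seen in COL9A3 (from 11.4 ± 0.503 to 4.87 ± 1.24 FPKM), COL11A1 (from 5.87 ± 0.370 to 2.74 ± 0.0848 FPKM) and COL26A1 (from 2.98 ± 0.382 to 0.897 ± 0.295 FPKM). Of 23 tested enzymes that modify or process collagen, 3 were higher and 8 lower, or 3 and 13 without gemcitabine replicate 1. P4HA1 and P4HA2, catalytic subunits of the collagen prolyl hydroxylase, fell from 42.4 ± 1.51 to 25.2 ± 3.89 FPKM and from 9.37 ± 0.286 to 4.23 ± 0.318 FPKM, whereas P4HA3, a further subunit of the same kind, rose from 1.56 ± 0.0745 to 3.80 ± 0.561 FPKM. LOX, which crosslinks collagen and elastin, rose from 2.57 ± 0.180 to 4.01 ± 0.370 FPKM.

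Enzymes that make or trim glycosaminoglycans rose more often than they fell, with 14 of 34 tested members higher and 2 lower (19 and 7 without gemcitabine replicate 1). Among these 14, 3 passed the filter only through gemcitabine libraries. Hyaluronan is a glycosaminoglycan made at the cell surface, and both its synthase HAS3 and CEMIP2, a hyaluronan-degrading enzyme of the cell surface, rose, HAS3 from 2.67 ± 0.0885 to 28.6 ± 3.30 FPKM and CEMIP2 from 1.64 ± 0.0525 to 4.93 ± 0.350 FPKM. Of the core proteins that carry such chains, SDC1, a syndecan of epithelia, was read at 17.1, 18.3, 18.2 and 16.6 FPKM in the controls and 80.7, 61.3, 62.1 and 60.3 FPKM with gemcitabine, a 3.77-fold rise. SRGN, an intracellular proteoglycan of secretory granules, rose from 15.5 ± 0.620 to 43.0 ± 5.61 FPKM. The syndecan SDC3 fell from 26.7 ± 1.53 to 13.2 ± 2.24 FPKM and VCAN, versican, from 1.30 ± 0.0916 to 0.243 ± 0.0183 FPKM.

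Among the secreted proteases, metalloproteinases went apart. MMP2, a gelatinase that cuts basement membrane collagen, was read at 136, 151, 144 and 135 FPKM in the controls and 54.6, 41.4, 42.7 and 41.9 FPKM with gemcitabine, 3.13-fold lower (log2 change -1.63 ± 0.09, adjusted p = 2.55e-06). MMP1 was read at 8.09, 8.27, 8.18 and 7.89 FPKM in the controls and 92.4, 105, 106 and 103 FPKM with gemcitabine. MMP10, a stromelysin that passed the filter only through gemcitabine libraries, went from 0.0763 ± 0.0773 to 1.45 ± 0.201 FPKM, while MMP11 fell from 2.31 ± 0.115 to 1.21 ± 0.425 FPKM and MMP15, a membrane-bound member, from 5.83 ± 0.507 to 3.71 ± 0.977 FPKM. Of the inhibitors, TIMP1 rose from 62.3 ± 2.17 to 95.9 ± 13.9 FPKM and RECK, a membrane-anchored inhibitor, fell from 8.47 ± 0.304 to 5.31 ± 0.321 FPKM. In all, 4 of 13 tested members were higher and 6 lower among metalloproteinases and their inhibitors. ADAM19, a membrane-anchored sheddase, was read at 1.27, 1.37, 1.21 and 1.14 FPKM in the controls and 14.4, 11.9, 12.6 and 12.9 FPKM with gemcitabine, and ADAMTS15 and the sheddase ADAM8 rose from 2.58 ± 0.304 to 9.46 ± 1.73 FPKM and from 1.13 ± 0.0823 to 4.24 ± 1.502 FPKM.

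Among genes around plasminogen activation and the serpins, 11 of 19 tested members were higher and 3 lower. Of these 11, 5 passed the filter only through gemcitabine libraries and had to come out higher, TFPI2 and SERPINE2 among them. THBD, thrombomodulin, was read at 2.49, 2.86, 3.05 and 2.57 FPKM in the controls and 12.04, 10.1, 9.59 and 10.3 FPKM with gemcitabine, TFPI2, a Kunitz-type inhibitor of plasmin, rose from 0.837 ± 0.152 to 4.22 ± 0.370 FPKM, and SERPINE2, a serpin of thrombin and urokinase, rose from 0.326 ± 0.05001 to 2.29 ± 0.111 FPKM. The complement inhibitor SERPING1 fell from 1.65 ± 0.128 to 0.880 ± 0.187 FPKM.

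**Figure D2:**
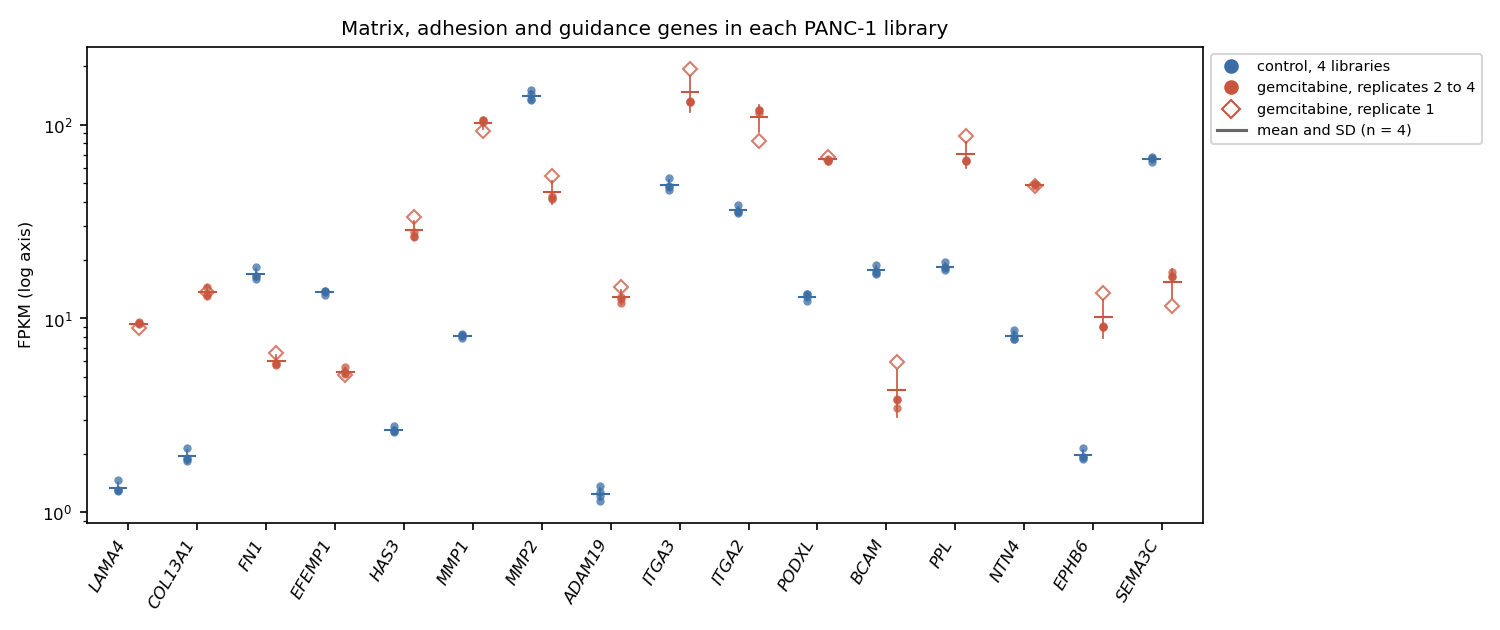
FPKM (log axis) of matrix, adhesion and guidance genes in each library, with lines for the mean and SD of 4 libraries and a diamond for gemcitabine replicate 1. The 16 genes were chosen among those whose 2 groups do not overlap.

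Adhesion receptors and epithelial junctions were the next part of the comparison. Integrins are pairs of an alpha and a beta chain that bind matrix, and 7 of 12 tested members were higher and 2 lower. ITGA3, a laminin-binding alpha chain, was read at 47.6, 53.1, 48.5 and 46.0 FPKM in the controls and 194, 131, 132 and 131 FPKM with gemcitabine, a 3.02-fold rise (log2 change 1.55 ± 0.13, adjusted p = 2.07e-05). ITGA2, which binds collagen, was read at 38.5, 35.3, 35.7 and 35.2 FPKM in the controls and 82.5, 118, 115 and 119 FPKM with gemcitabine. ITGA6, a further laminin receptor chain, rose from 39.3 ± 1.34 to 86.7 ± 11.1 FPKM, and ITGB8 rose from 0.527 ± 0.0536 to 2.16 ± 0.531 FPKM. The common beta chain ITGB1, chosen after its values were seen, did not pass the threshold, with means of 217 ± 3.88 in control and 197 ± 23.6 FPKM with gemcitabine. ITGB3 and ITGA10 fell from 3.73 ± 0.249 to 2.77 ± 0.0790 FPKM and from 4.24 ± 0.216 to 3.48 ± 0.252 FPKM. ITGA10 missed the threshold without control replicate 4 (adjusted p = 0.0502 by limma).

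Desmosomes and hemidesmosomes, which tie keratin filaments to the membrane, had 9 of 14 tested members higher and 0 lower and a median change of 0.59 (log2). Without gemcitabine replicate 1 the counts were 10 higher and 2 lower, and 1 member was lower at an unadjusted limma p under 0.05 and with limma-voom on recovered reads. PPL, periplakin, was read at 17.9, 19.6, 18.4 and 18.1 FPKM in the controls and 87.1, 65.2, 65.3 and 65.5 FPKM with gemcitabine, a 3.83-fold rise (log2 change 1.87 ± 0.10, adjusted p = 1.51e-06). PKP3, a plakophilin, was read at 3.44, 4.52, 3.58 and 3.61 FPKM in the controls and 18.0, 10.9, 11.7 and 11.3 FPKM with gemcitabine, and DSC2, a desmosomal cadherin, rose from 1.18 ± 0.0650 to 3.49 ± 0.527 FPKM. In PKP3 gemcitabine replicate 1 was the highest library, and in each of these genes the groups were apart, as the naming rule required. Tight junction genes went the other way more often, with 5 of 25 tested members higher and 11 lower. CLDN4 rose from 28.0 ± 1.45 to 74.4 ± 19.5 FPKM, while CLDN3 fell from 15.9 ± 1.27 to 9.17 ± 3.30 FPKM, CLDN12 from 16.6 ± 0.997 to 9.57 ± 1.76 FPKM and the polarity gene PARD6B from 6.85 ± 0.688 to 3.31 ± 0.711 FPKM. CLDN4 was read at 104 FPKM in gemcitabine replicate 1 and at 64.0 to 65.4 FPKM in the other 3, so its fold of 2.66 was 2.31 without that library.

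Intermediate filament genes followed the desmosomes in direction, with 11 of 16 tested members higher and 2 lower. Among these 11, 3 passed the filter only through gemcitabine libraries and had to come out higher, KRT15 and KRT81 included. Of the 2 lower, 1 passed only through controls. KRT80, an epithelial keratin, was read at 8.90, 9.87, 8.62 and 8.14 FPKM in the controls and 37.1, 28.998, 29.2 and 29.5 FPKM with gemcitabine, a 3.51-fold rise. KRT19 rose from 93.4 ± 6.40 to 227 ± 52.6 FPKM, or 2.43-fold, and 2.14-fold without gemcitabine replicate 1. KRT15 rose from 0.344 ± 0.0504 to 2.55 ± 0.641 FPKM. KRT81 rose from 0.374 ± 0.0339 to 2.38 ± 0.536 FPKM, although its reads may be shared with related hair keratins. VIM, vimentin, the filament protein of mesenchymal cells, was read at 255, 259, 272 and 285 FPKM in the controls and 176, 225, 228 and 220.1 FPKM with gemcitabine. All 4 gemcitabine libraries were under the lowest control for VIM.

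Cell adhesion molecules of the immunoglobulin and other families were mixed, with 12 of 27 tested members higher and 7 lower (13 and 11 without gemcitabine replicate 1). Among these 12, 3 passed the filter only through gemcitabine libraries. PODXL, podocalyxin, a sialomucin of the apical membrane, was read at 13.4, 13.4, 12.3 and 12.8 FPKM in the controls and 68.4, 64.7, 66.3 and 65.2 FPKM with gemcitabine, a 5.10-fold rise. CADM1, a synaptic and epithelial adhesion molecule, rose from 0.360 ± 0.0474 to 3.92 ± 0.245 FPKM, CEACAM6 from 0.178 ± 0.0569 to 2.25 ± 0.196 FPKM and the tetraspanin CD82 from 1.93 ± 0.131 to 6.22 ± 1.10 FPKM. BCAM, a laminin receptor of the Lutheran blood group, was read at 17.2, 18.9, 17.7 and 17.0 FPKM in the controls and 5.97, 3.44, 3.81 and 3.85 FPKM with gemcitabine, 4.15-fold lower (log2 change -1.85 ± 0.13, adjusted p = 8.49e-06). L1CAM, which guides axons and is found at the invasive edge of carcinomas, fell from 74.2 ± 3.93 to 41.5 ± 8.69 FPKM. Of focal adhesion proteins, 7 of 37 tested members were higher and 11 lower (13 and 15 without gemcitabine replicate 1). CAV1 and CAV2, which build caveolae and lie side by side on chromosome 7, fell from 173 ± 0.891 to 84.0 ± 7.08 FPKM and from 38.2 ± 1.53 to 19.2 ± 3.15 FPKM, while PXN, paxillin, rose from 31.7 ± 0.783 to 49.7 ± 6.13 FPKM and PDLIM7 from 9.04 ± 0.672 to 18.4 ± 4.17 FPKM. Of cadherins, catenins and nectins 4 of 19 tested members were higher and 7 lower (6 and 12 without gemcitabine replicate 1), with NECTIN3 higher (from 1.27 ± 0.0621 to 2.70 ± 0.389 FPKM) and the giant cadherin FAT1 lower (from 35.0 ± 2.32 to 24.3 ± 0.522 FPKM). CDH2, N-cadherin, rose from 2.20 ± 0.121 to 3.84 ± 0.0834 FPKM, a low level. EPCAM did not pass, with means of 17.5 ± 1.20 in control and 17.1 ± 1.30 FPKM with gemcitabine.

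Guidance factors steer growing axons and vessels by attraction or repulsion, and carcinoma cells use many of them. Of the 9 higher members of the list of slits, netrins and their receptors, 6 passed the filter only through gemcitabine libraries. NTN4, a netrin-related protein that binds laminin in basement membranes, was read at 7.82, 8.70, 7.83 and 8.24 FPKM in the controls and 48.3, 49.3, 49.6 and 48.4 FPKM with gemcitabine, a 6.0002-fold rise (log2 change 2.45 ± 0.05, adjusted p = 2.83e-08). NTN1, the classical netrin, rose from 0.790 ± 0.0428 to 2.21 ± 0.518 FPKM, and DRAXIN, a secreted repellent, from 0.0777 ± 0.0223 to 1.22 ± 0.176 FPKM. FLRT3, a receptor with leucine-rich repeats, rose from 0.397 ± 0.0758 to 1.43 ± 0.263 FPKM. LINGO1, a co-receptor for inhibitors of axon growth, fell from 4.15 ± 0.561 to 1.21 ± 0.265 FPKM, the netrin receptor NEO1 from 13.9 ± 0.902 to 9.03 ± 0.342 FPKM and the slit receptor ROBO1 from 8.48 ± 0.487 to 6.58 ± 0.390 FPKM. In the whole list of slits, netrins and their receptors 9 of 20 tested members were higher and 4 lower (9 and 8 without gemcitabine replicate 1), and 22 of the 42 listed genes were below the filter.

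Semaphorins signal through neuropilins and plexins, and here ligands and receptors moved in both directions (5 of 18 tested members higher and 6 lower, or 6 and 10 without gemcitabine replicate 1). SEMA3C, a secreted ligand, fell from 66.5 ± 1.73 to 15.4 ± 2.63 FPKM. Its relative SEMA3A was read at 1.51, 1.53, 1.56 and 1.66 FPKM in the controls and 2.70, 3.80, 3.87 and 4.04 FPKM with gemcitabine, and the shared receptor NRP1 at 6.05, 5.47, 5.71 and 5.95 FPKM in the controls and 12.3, 14.9, 14.6 and 14.5 FPKM with gemcitabine, a 2.43-fold rise. SEMA7A, which is anchored in the membrane and binds integrins, rose from 1.10 ± 0.0449 to 2.81 ± 0.521 FPKM, and the receptor PLXNA2 from 1.44 ± 0.122 to 3.14 ± 0.427 FPKM. SEMA4G, SEMA3F and the receptor PLXND1 fell, from 2.86 ± 0.190 to 1.03 ± 0.0957 FPKM, from 5.88 ± 0.315 to 3.64 ± 0.722 FPKM and from 34.9 ± 2.73 to 21.4 ± 4.83 FPKM. The secreted ligands SEMA3A and SEMA3C thus changed in opposite directions, with no overlap between the groups for either.

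Eph receptors and ephrins, a system of contact repulsion in which both partners sit in the membrane, changed in both directions. The members named here, not all of those called, split largely by role. EPHB6, a receptor that lacks kinase activity, was read at 2.15, 1.89, 1.93 and 1.93 FPKM in the controls and 13.6, 9.01, 9.17 and 9.09 FPKM with gemcitabine, a 5.18-fold rise. The receptors EPHB2 and EPHA2 rose, from 4.91 ± 0.379 to 9.71 ± 1.68 FPKM and from 152 ± 5.96 to 237 ± 57.9 FPKM, and EPHA7 fell from 2.26 ± 0.105 to 0.846 ± 0.231 FPKM. The ligands EFNA4, EFNB3 and EFNA3 fell, from 4.46 ± 0.573 to 2.21 ± 0.398 FPKM, from 2.45 ± 0.173 to 1.26 ± 0.135 FPKM and from 2.39 ± 0.340 to 1.22 ± 0.164 FPKM, while EFNB2 rose from 0.550 ± 0.108 to 1.23 ± 0.0387 FPKM. Of 13 tested members 5 were higher and 6 lower, and the split by role was noticed after the values were seen and was not tested.

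Actin genes rose in 23 of 56 tested members and fell in 13, or 29 and 14 without gemcitabine replicate 1. LCP1, the plastin of leukocytes that also appears in carcinoma lines, was read at 0.0853, 0.119, 0.0756 and 0.104 FPKM in the controls and 2.72, 3.39, 3.30 and 3.51 FPKM with gemcitabine. ANKRD1, a muscle ankyrin repeat protein, rose from 2.13 ± 0.327 to 8.44 ± 1.45 FPKM, CALD1, caldesmon, from 5.69 ± 0.180 to 13.1 ± 2.17 FPKM, and MYO1E, a class I myosin, from 1.93 ± 0.126 to 5.65 ± 0.205 FPKM. RFLNA, a refilin that binds filamin, fell from 9.76 ± 0.714 to 0.966 ± 0.271 FPKM, ABLIM1 from 29.6 ± 0.974 to 14.03 ± 1.17 FPKM and the non-muscle myosin heavy chain MYH14 from 5.57 ± 0.352 to 2.76 ± 0.762 FPKM. The leukocyte markers other than LCP1 and CD14 were nowhere above 0.168 FPKM. Tubulins and microtubule proteins were higher in 13 of 26 and lower in 3 (15 higher and 5 lower without gemcitabine replicate 1). TUBB, a beta tubulin with close copies, rose from 222 ± 3.93 to 341 ± 17.2 FPKM, and MAP2, a microtubule protein of dendrites, fell from 10.4 ± 0.163 to 4.18 ± 0.5998 FPKM. Among S100 proteins, small calcium sensors, and annexins, which bind membranes in a calcium-dependent way, 12 of 18 tested members were higher and 2 lower. S100A16 was read at 21.0, 22.5, 21.7 and 21.4 FPKM in the controls and 89.5, 64.0, 65.5 and 63.7 FPKM with gemcitabine, a 3.26-fold rise, and ANXA1 rose from 36.4 ± 1.74 to 86.7 ± 7.18 FPKM. S100A3 and S100A2 rose from 1.76 ± 0.242 to 6.74 ± 1.20 FPKM and from 1.10 ± 0.163 to 4.78 ± 0.949 FPKM.

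Central carbon metabolism held a few strongly changed genes in lists that were otherwise mixed. In glycolysis and glucose transport 8 of 30 tested members were higher and 6 lower (11 and 11 without gemcitabine replicate 1), and the list median was 0.04, or -0.05 without gemcitabine replicate 1. HK2, the inducible hexokinase that traps glucose in the cell, was read at 1.66, 1.79, 1.61 and 1.65 FPKM in the controls and 8.65, 8.40, 7.60 and 7.74 FPKM with gemcitabine, a 4.82-fold rise (log2 change 1.76 ± 0.06, adjusted p = 1.28e-07), and the glucose transporter SLC2A1 at 9.38, 11.1, 10.2 and 9.40 FPKM in the controls and 35.5, 27.2, 27.5 and 25.6 FPKM with gemcitabine. PKM, pyruvate kinase, rose from 158 ± 4.79 to 256 ± 24.7 FPKM, whereas ALDOC, an aldolase, fell from 2.40 ± 0.129 to 1.03 ± 0.176 FPKM and TXNIP, which restrains glucose uptake, from 30.0 ± 0.819 to 22.7 ± 1.28 FPKM. HK2 and SLC2A1 are also induced by low oxygen, and of 34 tested hypoxia-inducible genes 10 were higher and 12 lower. NDRG1 rose with them (from 4.78 ± 0.228 to 21.5 ± 2.09 FPKM), while HILPDA, a protein of lipid droplets, fell from 13.5 ± 0.479 to 4.70 ± 0.467 FPKM, DDIT4 from 93.6 ± 6.58 to 55.5 ± 16.5 FPKM and MXI1 from 10.1 ± 0.551 to 5.41 ± 0.783 FPKM.

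PYGB, the brain form of glycogen phosphorylase, which frees glucose from glycogen, was read at 124, 133, 128 and 124 FPKM in the controls and 389, 286, 285 and 282 FPKM with gemcitabine, a 2.44-fold rise. TKT, transketolase of the pentose phosphate pathway, rose from 25.1 ± 0.725 to 51.3 ± 8.91 FPKM. PPP1R3B, which targets a phosphatase to glycogen, fell from 7.57 ± 0.371 to 3.75 ± 0.133 FPKM, as did H6PD, the pentose phosphate enzyme of the endoplasmic reticulum (from 19.4 ± 0.990 to 12.1 ± 1.68 FPKM). In the tricarboxylic acid cycle PC, pyruvate carboxylase, which refills oxaloacetate, was read at 2.29, 2.21, 2.13 and 2.30 FPKM in the controls and 10.1, 6.71, 6.98 and 6.39 FPKM with gemcitabine, and IDH1, the cytosolic isocitrate dehydrogenase that makes NADPH, at 43.4, 40.9, 42.7 and 46.2 FPKM in the controls and 16.5, 20.5, 21.3 and 21.0 FPKM with gemcitabine. For PC every gemcitabine library was above every control, and for IDH1 below, a separation that the naming rule required. Of 38 genes of the cycle 8 were higher and 6 lower (13 higher and 12 lower without gemcitabine replicate 1). These counts were near or below the shares over all genes. Nuclear-encoded subunits of oxidative phosphorylation mostly did not pass, with 4 of 69 higher, 10 lower (11 higher and 27 lower without gemcitabine replicate 1) and a median change of -0.04. The 13 protein-coding genes of mitochondrial DNA split, with 3 higher and 5 lower (8 higher and 5 lower without gemcitabine replicate 1). MT-ND4 rose from 1449 ± 31.4 to 1872 ± 144 FPKM and MT-ND2 fell from 1637 ± 48.4 to 1269 ± 143 FPKM, although both derive from the same long precursor.

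Gemcitabine is itself handled by nucleoside enzymes, and in purine, pyrimidine and one-carbon metabolism 10 of 37 tested members were higher and 7 lower (18 and 9 without gemcitabine replicate 1). NT5E, the surface ectonucleotidase that makes adenosine, was read at 80.0, 72.1, 77.5 and 76.3 FPKM in the controls and 165, 227, 228 and 225 FPKM with gemcitabine, a 2.76-fold rise (log2 change 1.44 ± 0.11, adjusted p = 1.08e-05). UPP1, uridine phosphorylase, was read at 37.5, 38.4, 37.8 and 37.9 FPKM in the controls and 121, 85.5, 84.9 and 86.4 FPKM with gemcitabine, and AMPD3, an AMP deaminase, at 2.90, 2.83, 2.88 and 2.51 FPKM in the controls and 11.2, 10.2, 9.81 and 9.98 FPKM with gemcitabine. The groups did not overlap in any of the 3, as the naming rule required. CTPS1, which makes CTP, rose from 8.61 ± 0.0914 to 13.004 ± 0.312 FPKM. IMPDH1, the rate-limiting enzyme of guanine nucleotide synthesis, fell from 33.1 ± 1.81 to 17.9 ± 3.63 FPKM, NT5C2, a cytosolic nucleotidase, from 34.1 ± 0.411 to 22.0 ± 2.13 FPKM, and the adenylate kinase AK1 from 5.88 ± 0.268 to 2.93 ± 0.352 FPKM.

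Lipid genes were mixed. In fatty acid synthesis and storage 9 of 31 tested members were higher and 10 lower, among them the lipid droplet coat protein PLIN2 (from 6.26 ± 0.0980 to 16.3 ± 0.522 FPKM) and the elongases ELOVL2 (from 7.9999 ± 0.274 to 16.8 ± 2.49 FPKM) and ELOVL7 (from 2.23 ± 0.191 to 4.97 ± 1.27 FPKM) higher, and ACSL3, an acyl-CoA synthetase, lower (from 19.5 ± 0.693 to 14.4 ± 1.995 FPKM). In cholesterol synthesis and uptake 8 of 29 tested members were higher and 7 lower (13 and 11 without gemcitabine replicate 1), with TM7SF2, a sterol reductase, lower (from 18.2 ± 0.377 to 9.59 ± 1.91 FPKM). Fatty acid oxidation and peroxisome genes fell more often than they rose (5 of 37 tested members higher and 14 lower, or 9 and 22 without gemcitabine replicate 1). CAT, catalase, was among those that rose, from 13.8 ± 0.273 to 30.8 ± 1.33 FPKM. PEX11A, which drives peroxisome division, fell from 8.38 ± 0.489 to 4.64 ± 0.279 FPKM, and EHHADH, a peroxisomal enzyme of the same pathway, from 3.61 ± 0.233 to 2.24 ± 0.319 FPKM.

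Genes that NRF2 induces and genes of glutathione rose in 5 of 42 tested members and fell in 14 (10 higher and 21 lower without gemcitabine replicate 1). GSTA4, a glutathione transferase, fell from 2.63 ± 0.313 to 0.809 ± 0.223 FPKM, SOD3, the extracellular superoxide dismutase, from 6.52 ± 0.412 to 2.48 ± 1.17 FPKM, and HMOX1, heme oxygenase, from 142 ± 2.85 to 90.5 ± 9.95 FPKM. GCLC, the catalytic subunit for glutathione synthesis, rose from 5.82 ± 0.216 to 10.1 ± 0.915 FPKM, and GSTO1 from 31.3 ± 1.63 to 52.4 ± 2.07 FPKM. Of 38 tested genes that handle metals 8 were higher and 10 lower (11 higher and 16 lower without gemcitabine replicate 1), near the shares over all genes. The metallothioneins, which bind zinc and copper, include 3 that rose. MT2A was read at 219.9, 224, 217 and 207 FPKM in the controls and 629, 529, 569 and 545 FPKM with gemcitabine, a 2.62-fold rise, and MT1X and MT1E rose from 1.93 ± 0.170 to 5.98 ± 1.37 FPKM and from 55.1 ± 1.88 to 99.0 ± 5.05 FPKM. These genes are near-identical copies side by side on chromosome 16, so the division of their reads is uncertain. STEAP3, an iron reductase, rose from 15.7 ± 0.930 to 31.9 ± 4.87 FPKM, and the copper exporter ATP7B fell from 3.71 ± 0.135 to 1.71 ± 0.156 FPKM.

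In amino acid synthesis and the integrated stress response, 5 of 34 tested members were higher and 10 lower (10 higher and 20 lower without gemcitabine replicate 1). DDIT3, which encodes the factor CHOP, fell from 92.7 ± 2.59 to 47.0 ± 3.68 FPKM and PCK2, the mitochondrial carboxykinase, from 29.5 ± 1.15 to 15.8 ± 3.73 FPKM, while STC2 rose from 41.4 ± 0.998 to 87.2 ± 7.43 FPKM and GDF15, a secreted stress cytokine, from 393 ± 28.1 to 714 ± 214 FPKM. SLC7A5, the transporter of large neutral amino acids, rose from 97.5 ± 5.24 to 166 ± 32.0 FPKM. Aminoacyl-tRNA synthetases were higher in 9 of 24 and lower in 2 (13 higher and 4 lower without gemcitabine replicate 1). The lower ones with all libraries were WARS, which interferon also induces, and QARS, and WARS fell from 56.4 ± 0.977 to 35.6 ± 0.642 FPKM. Of 16 tested polyamine genes 5 were higher and 4 lower (5 higher and 7 lower without gemcitabine replicate 1), with ODC1, the first enzyme of the pathway (from 104 ± 4.49 to 159 ± 3.64 FPKM), and SMS, spermine synthase (from 92.1 ± 2.61 to 153 ± 17.5 FPKM), higher, and SAT1, which starts their breakdown, lower (from 96.7 ± 5.02 to 53.8 ± 4.67 FPKM). Proteasome subunits were higher in 14 of 40 and lower in 3 (24 higher and 6 lower without gemcitabine replicate 1). PSME4, an activator cap, rose from 9.78 ± 0.299 to 14.97 ± 2.26 FPKM and PSMB5, a catalytic subunit, fell from 74.1 ± 1.81 to 59.6 ± 6.69 FPKM.

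Heat shock proteins, the chaperones that hold or refold other proteins, fell or did not pass. Of 46 tested members 0 were higher and 18 lower (background 24.0% lower), with a median change of -0.18 (log2). Without gemcitabine replicate 1 the counts were 6 higher and 24 lower (background 32.8% and 37.0%), and with each library's GC trend removed 3 and 28. Calls over all genes rose in both settings too. No heat shock member was higher at an unadjusted limma p under 0.05 or with limma-voom on recovered reads. HSPA6, a strictly inducible chaperone, was read at 9.11, 10.02, 9.75 and 8.85 FPKM in the controls and 1.999, 1.27, 1.06 and 1.245 FPKM with gemcitabine, 6.77-fold lower. HSPA1A, the main inducible chaperone of the cytosol, was read at 132, 139, 127 and 134 FPKM in the controls and 60.1, 45.3, 42.9 and 43.2 FPKM with gemcitabine, and its near-identical neighbour HSPA1B at 55.9, 63.3, 54.0 and 59.0 FPKM in the controls and 26.9, 20.1, 20.5 and 20.2 FPKM with gemcitabine. Reads of this pair cannot be divided with certainty. DNAJA4, a co-chaperone, was read at 14.3, 14.4, 14.6 and 14.6 FPKM in the controls and 4.92, 5.21, 5.04 and 4.47 FPKM with gemcitabine, 2.95-fold lower (log2 change -1.39 ± 0.06, adjusted p = 3.69e-07). All 4 gemcitabine libraries were below the lowest control in each of these genes, as the naming rule required.

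Other members of the list, chosen after their values were seen, show where the falls stopped. HSPB1, a small heat shock protein, was read at 241, 278, 254 and 248 FPKM in the controls and 165, 91.8, 91.9 and 88.1 FPKM with gemcitabine, and HSPA2 fell from 7.04 ± 0.248 to 2.24 ± 0.464 FPKM. The constitutive chaperone HSPA8 and the HSP90 gene HSP90AB1 did not pass, with means of 432 ± 3.27 in control and 443 ± 14.5 FPKM with gemcitabine and means of 777 ± 9.59 in control and 800.0 ± 22.4 FPKM with gemcitabine. In the endoplasmic reticulum, 2 of 47 chaperones and folding enzymes were higher and 14 lower (9 higher and 20 lower without gemcitabine replicate 1). CREB3L1, a membrane-bound transcription factor of the secretory pathway, was read at 11.5, 11.6, 10.97 and 10.6 FPKM in the controls and 2.94, 2.34, 2.26 and 2.07 FPKM with gemcitabine. PDIA5 and HSP90B1 fell from 18.1 ± 0.609 to 7.51 ± 0.403 FPKM and from 184 ± 7.77 to 118 ± 18.1 FPKM, and HSPA5, the main chaperone of this compartment and chosen after its values were seen, did not pass, with means of 385 ± 9.59 in control and 374 ± 4.33 FPKM with gemcitabine.

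Heat shock factors bind inverted repeats of the letters NGAAN, here searched as TTCNNGAA and, a form added after the data were seen, GAANNTTC, each of which reads the same on both strands. The window ran from 250 bases before to 50 after the start of each gene in RefSeq (GRCh38.p14). Promoters of 17 of the 18 heat shock genes that fell were matched by symbol, and 7 of them (41.2%) held GAANNTTC and 3 (17.6%) TTCNNGAA. Among the 9033 tested genes with a promoter the shares were 4.36% and 5.85%, and among all 27305 promoters there 6.87% and 7.84%. The members were picked because they are heat shock genes, so a high share describes the list and not the fall. The promoters of HSPA6 (chr1:161524290-161524589, plus strand), HSPA1A (chr6:31815293-31815592, plus strand) and HSPB1 (chr7:76302423-76302722, plus strand) are shown as examples picked by hand, with both repeats in capitals. All 3 hold a match. DNAJA4 and HSPA2, which also fell (log2 changes of -1.39 and -1.32, beside -1.27 for HSPB1), held neither repeat. Whether the repeats bear on the falls was not tested.
HSPA6: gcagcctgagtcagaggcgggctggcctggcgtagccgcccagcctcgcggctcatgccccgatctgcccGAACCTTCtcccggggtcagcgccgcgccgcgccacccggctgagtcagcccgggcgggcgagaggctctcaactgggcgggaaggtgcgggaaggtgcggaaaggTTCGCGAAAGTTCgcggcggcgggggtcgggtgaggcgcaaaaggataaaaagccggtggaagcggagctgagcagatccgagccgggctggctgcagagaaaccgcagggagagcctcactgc
HSPA1A: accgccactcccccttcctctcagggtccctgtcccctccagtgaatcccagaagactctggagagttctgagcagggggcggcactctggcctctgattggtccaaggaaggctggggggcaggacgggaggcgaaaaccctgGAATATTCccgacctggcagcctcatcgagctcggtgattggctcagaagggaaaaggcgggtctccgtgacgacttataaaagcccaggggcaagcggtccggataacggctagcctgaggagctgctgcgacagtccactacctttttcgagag
HSPB1: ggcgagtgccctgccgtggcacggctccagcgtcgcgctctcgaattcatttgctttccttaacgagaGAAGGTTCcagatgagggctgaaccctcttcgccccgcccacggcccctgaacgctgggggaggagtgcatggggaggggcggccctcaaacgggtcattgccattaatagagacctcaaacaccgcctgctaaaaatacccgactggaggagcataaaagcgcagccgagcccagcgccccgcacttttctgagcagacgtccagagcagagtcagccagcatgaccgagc
A match is a string of letters, not a measured binding site. Of the 12 largest rises 5 had a promoter in the table and of the 12 largest falls 8. The AP-1 string TGANTCA was in 1 of the 5 (PRSS3) and in 1 of the 8 (HSPA6), against 4.23% of tested genes, and TTCNNGAA was in 0 of the 5 and 3 of the 8 (TLE2, HSPA6 and SEMA3C). The E-box CACGTG was in 1 and 0, TATAAA in 0 and 0, and GGGCGG in 2 and 4. Numbers this small allow no comparison.

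**Figure D3:**
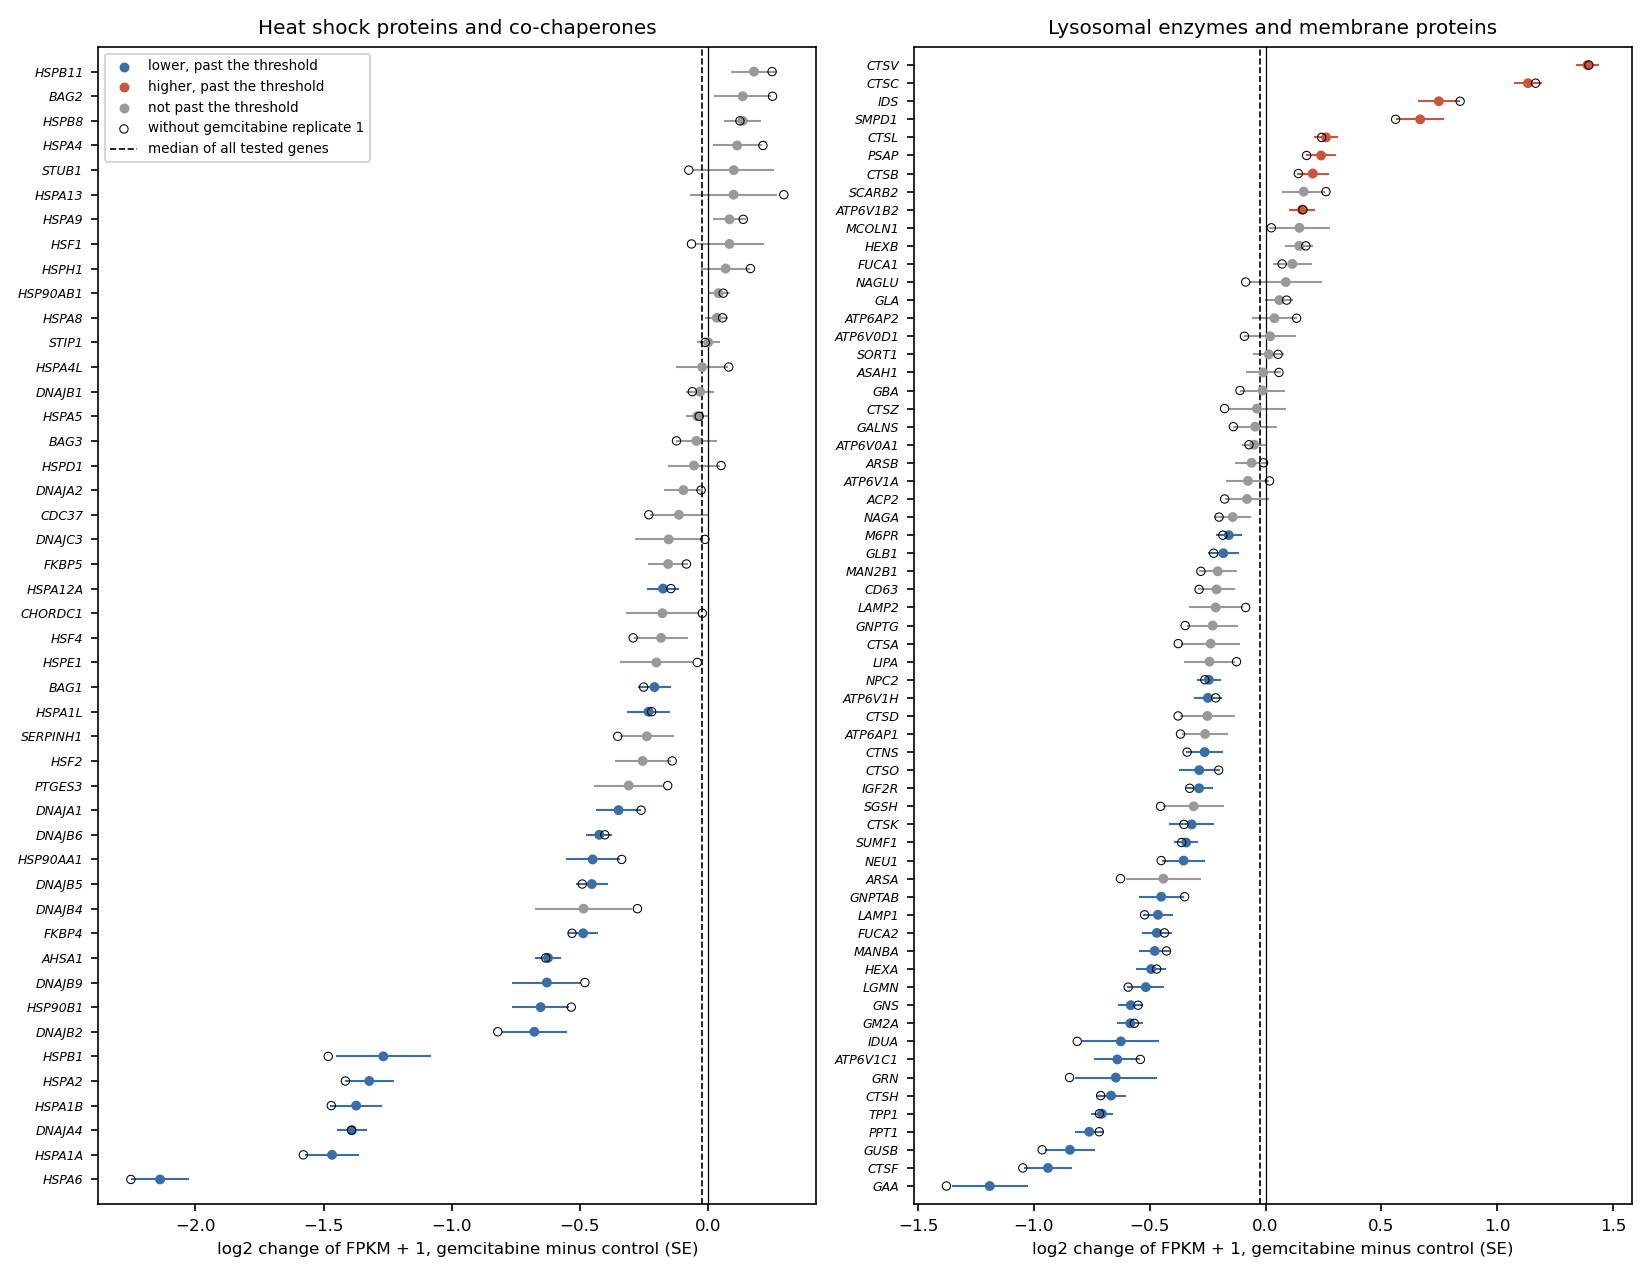
Change (log2 of FPKM + 1, gemcitabine minus control, with SE) of every tested heat shock and lysosomal gene, filled by the call with all 8 libraries and open circles for the same change without gemcitabine replicate 1. No heat shock gene passed as higher, and 27 of 63 lysosomal genes passed as lower.

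Lysosomal enzymes and membrane proteins, which break down what the cell takes up or turns over, fell in 27 of 63 tested members and rose in 8, with a median change of -0.23 (log2). Without gemcitabine replicate 1 the counts were 42 lower and 11 higher, against 37.0% and 32.8% of all tested genes, where calls also rose. GAA, the acid glucosidase that degrades glycogen, was read at 23.3, 25.04, 24.5 and 23.1 FPKM in the controls and 15.2, 8.97, 8.48 and 8.39 FPKM with gemcitabine, 2.34-fold lower (log2 change -1.19 ± 0.16, adjusted p = 0.000418). CTSF, a cathepsin, was read at 23.5, 25.2, 26.0 and 25.6 FPKM in the controls and 16.04, 11.8, 11.7 and 11.2 FPKM with gemcitabine, GUSB, a glucuronidase, fell from 37.5 ± 0.455 to 20.7 ± 3.91 FPKM and PPT1, a thioesterase, from 74.9 ± 2.77 to 43.8 ± 2.81 FPKM. The groups were apart in all 4, as the naming rule required. Other cathepsins rose, CTSV from 2.42 ± 0.0792 to 7.96 ± 0.218 FPKM and CTSC from 7.69 ± 0.315 to 18.1 ± 0.932 FPKM, and so did IDS, a sulfatase of glycosaminoglycan breakdown (from 22.2 ± 0.602 to 38.2 ± 4.75 FPKM), and SMPD1, the acid sphingomyelinase (from 24.1 ± 1.20 to 39.2 ± 6.32 FPKM). Of the factors that drive lysosomal genes, MITF rose from 0.931 ± 0.107 to 2.74 ± 0.485 FPKM and TFEB fell from 1.96 ± 0.0805 to 1.13 ± 0.268 FPKM. Autophagy genes mostly did not pass, with 6 of 45 higher and 8 lower (10 higher and 15 lower without gemcitabine replicate 1), and the initiating kinase ULK1 rose from 11.04 ± 0.504 to 19.6 ± 5.53 FPKM.

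By the family given in the deposited table, 146 of 929 tested transcription factors were higher (15.7%, against 20.7% of all genes) and 247 lower (26.6%, against 24.0%), with a median change of -0.05 (log2), and without gemcitabine replicate 1 the counts were 274 and 378. The zinc finger family zf-C2H2 had 45 of 414 higher (10.9%) and 97 lower (23.4%, close to the share over all genes), or 108 and 151 without gemcitabine replicate 1. The homeobox family had 9 of 65 higher and 31 lower. When the HOX genes were set aside, the remaining 44 homeobox genes had 9 higher and 15 lower, with a median of -0.04.

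HOX genes specify position along the body axis, lie in 4 clusters and stay active in many adult cells and tumours as a record of origin. None of the 22 tested was higher and 17 were lower, with a median change of -0.65 (log2), and without gemcitabine replicate 1 or with the GC trend removed 19 were lower. Limma at an unadjusted p under 0.05 and limma-voom also gave 0 higher. The 9 tested genes of the HOXB cluster (chr17:48528526-48729178, GRCh38) were all lower, with changes of -1.57 to -0.44, and so were the 8 tested genes of the HOXC cluster (chr12:53938765-54056030), with -1.16 to -0.26. The 4 gemcitabine libraries lay below the 4 controls in each of these 17 genes. In 1 of them, a gene of the HOXC cluster that passed the filter only through controls, the filter itself set this order and the call supports nothing. The 5 tested genes of the HOXA cluster (chr7:27092993-27200106) did not pass, with changes of -0.23 to -0.05, though 2 of them were called lower without gemcitabine replicate 1. Whether the clusters differ was not tested. All 9 HOXD genes were below the filter, none above 0.268 FPKM in any library.

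HOXB9 was read at 95.2, 98.4, 98.8 and 94.1 FPKM in the controls and 42.1, 37.0, 36.4 and 35.6 FPKM with gemcitabine, a 2.56-fold difference (log2 change -1.33 ± 0.06, adjusted p = 7.67e-07). HOXB8 was read at 39.0, 39.9, 43.5 and 42.2 FPKM in the controls and 12.97, 14.6, 12.6 and 12.5 FPKM with gemcitabine, 3.12-fold lower. HOXC10 was read at 53.03, 53.8, 54.6 and 57.1 FPKM in the controls and 28.6, 28.2, 28.9 and 27.0 FPKM with gemcitabine, and HOXC9 at 24.6, 25.1, 26.3 and 23.1 FPKM in the controls and 10.6, 11.1, 9.95 and 10.3 FPKM with gemcitabine. In these genes gemcitabine replicate 1 lay with the other 3 of its group and all were well under the controls. HOXB5, HOXB6 and HOXC6 fell from 41.6 ± 2.49 to 17.8 ± 1.02 FPKM, from 51.8 ± 4.03 to 23.4 ± 4.36 FPKM and from 12.4 ± 0.614 to 6.003 ± 0.812 FPKM. Other genes within the clusters, most of them antisense or long non-coding, fell too: 3 of 7 tested in HOXB and all 4 in HOXC, with none higher. HOTAIR, a long non-coding RNA of the HOXC cluster chosen after its values were seen, fell from 5.25 ± 0.202 to 2.95 ± 0.383 FPKM. The sources used here do not say whether counting used strand. Reads of a HOX gene and of an overlapping antisense gene therefore cannot be told apart, and HOXC4 and HOXC6 share part of their gene models. On the same strand, HOXB8 and HOXB9 lie within the span of a further HOXB gene. HOXB5 lies within that of another, and HOXC9 within that of HOXC6. The calls within a cluster may thus not all be separate measurements. In the 500 kb on either side of the clusters, 2 of 11 tested genes beside HOXB were higher and 2 lower, and 1 of 14 beside HOXC was higher and 8 lower.

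**Figure D4:**
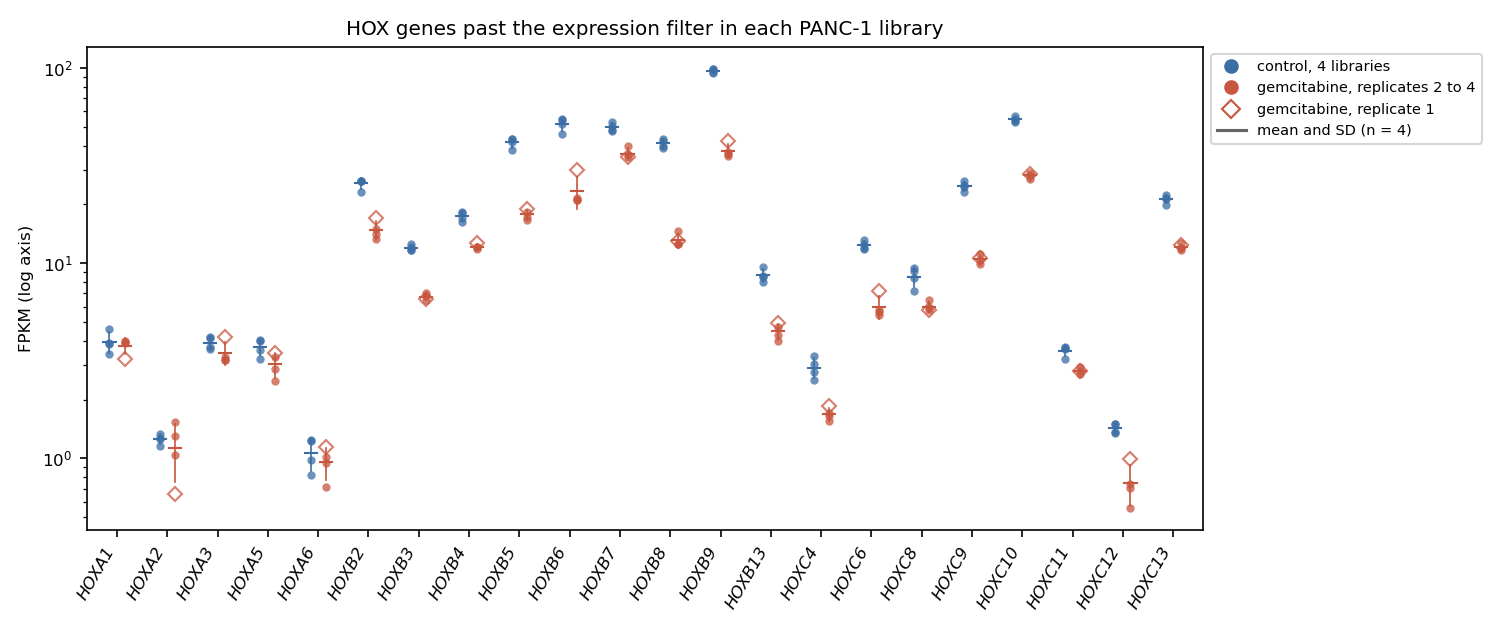
FPKM (log axis) in each library of the 22 HOX genes past the expression filter, ordered by cluster and number, with lines for the mean and SD of 4 libraries. The groups are apart in all HOXB and HOXC genes and overlap in the 5 HOXA genes.

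Co-repressors of the TLE and CtBP families and their partners, which silence genes for DNA-bound factors, were higher in 1 of 28 tested members and lower in 13 (4 higher and 19 lower without gemcitabine replicate 1). TLE2 was read at 7.25, 8.09, 7.37 and 7.29 FPKM in the controls and 1.06, 0.744, 0.631 and 0.646 FPKM with gemcitabine, 9.74-fold lower. TBL1XR1, a subunit of the NCoR complex, fell from 18.5 ± 1.01 to 9.84 ± 2.27 FPKM, BCORL1 from 11.9 ± 0.810 to 7.53 ± 0.764 FPKM and TLE4 from 2.17 ± 0.160 to 1.21 ± 0.0486 FPKM, while TLE1 rose from 7.25 ± 0.205 to 8.97 ± 1.246 FPKM. The call of TLE1 (limma, adjusted p = 0.0341) was lost without any one control library or gemcitabine replicate 4, with adjusted p from 0.0604 to 0.0836. Polycomb and other chromatin modifiers had 14 of 90 higher and 20 lower, below the shares over all genes (20.7% and 24.0%). Without gemcitabine replicate 1, 26 were higher and 31 lower, again below those shares (32.8% and 37.0%). UHRF1 and DNMT1, which copy DNA methylation at replication, rose from 5.70 ± 0.338 to 12.9 ± 2.47 FPKM and from 9.03 ± 0.521 to 16.1 ± 1.83 FPKM. CBX7, a Polycomb reader, fell from 2.78 ± 0.189 to 1.51 ± 0.158 FPKM, KDM6B, a demethylase that opposes Polycomb, from 6.03 ± 0.520 to 3.90 ± 0.735 FPKM, and SMARCD3, a remodelling subunit, from 6.88 ± 0.207 to 3.57 ± 0.407 FPKM.

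Among factors of the immediate-early type, FOSL1, an AP-1 subunit, was read at 75.04, 79.8, 78.5 and 72.4 FPKM in the controls and 220.0, 166, 164 and 161 FPKM with gemcitabine, a 2.33-fold rise (log2 change 1.20 ± 0.10, adjusted p = 2.33e-05). IER3 rose from 31.6 ± 1.37 to 65.6 ± 4.93 FPKM and MAFK from 36.4 ± 1.40 to 66.5 ± 18.7 FPKM. In the whole list of AP-1, ATF and EGR factors 8 of 27 tested members were higher and 3 lower (10 and 8 without gemcitabine replicate 1). The clock genes NPAS2 and ARNTL2 rose from 10.9 ± 0.511 to 27.3 ± 1.23 FPKM and from 13.9 ± 0.504 to 31.6 ± 6.36 FPKM. MLXIP, a glucose-sensing factor, fell from 21.1 ± 1.26 to 10.02 ± 1.33 FPKM. KLF4, a factor of epithelial differentiation, rose from 3.33 ± 0.192 to 11.7 ± 0.846 FPKM, and GRHL3, a grainyhead factor of epidermal barrier genes, from 1.45 ± 0.207 to 4.09 ± 0.630 FPKM. ETV1 rose from 1.06 ± 0.0943 to 2.92 ± 0.542 FPKM and the homeobox gene LHX1, a low gene, from 0.385 ± 0.0395 to 2.33 ± 0.201 FPKM. PRRX2, a homeobox factor of mesenchyme, fell from 8.02 ± 0.536 to 3.50 ± 1.17 FPKM.

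Of the factors of endoderm and pancreas, GATA4 fell from 15.2 ± 0.389 to 8.22 ± 1.47 FPKM and FOXA2 from 26.1 ± 1.22 to 17.6 ± 2.34 FPKM, while GATA6 rose from 0.901 ± 0.0532 to 1.34 ± 0.0851 FPKM, a low level. SOX12 and SOX18 fell from 38.1 ± 1.93 to 21.2 ± 5.14 FPKM and from 3.16 ± 0.302 to 1.42 ± 0.582 FPKM. SOX9, the ductal factor, was chosen after its values were seen and did not pass, with means of 89.2 ± 3.62 in control and 84.9 ± 2.01 FPKM with gemcitabine. Of nuclear receptors 8 of 24 tested members were higher and 7 lower, with NR2F1 and RARG lower (from 14.8 ± 0.692 to 7.90 ± 0.444 FPKM and from 10.8 ± 0.4995 to 6.34 ± 1.13 FPKM) and the glucocorticoid receptor NR3C1 higher (from 7.44 ± 0.344 to 10.8 ± 1.91 FPKM). Of NF-kB subunits and feedback genes 10 of 23 tested members were higher and 1 lower (12 and 4 without gemcitabine replicate 1), and TNFAIP3, an inhibitor of that pathway, rose from 1.88 ± 0.155 to 3.57 ± 0.103 FPKM. Factors of the epithelial-mesenchymal transition were few: of 4 tested, ZEB1 fell from 5.50 ± 0.0709 to 4.16 ± 0.706 FPKM, FOXC2 rose from 9.64 ± 0.335 to 12.7 ± 1.44 FPKM, and 11 others were below the filter. ZEB1 missed the threshold without control replicate 2 (adjusted p = 0.0505 by limma).

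Signalling genes differed from list to list. Fibroblast growth factors and their receptors had 1 of 7 tested members higher and 3 lower (3 and 3 without gemcitabine replicate 1). In the EGFR family and its ligands 7 of 12 tested members were higher and 1 lower (7 and 2 without gemcitabine replicate 1), and the median change was 0.51 (log2). EREG, epiregulin, was read at 3.17, 2.73, 2.88 and 2.67 FPKM in the controls and 11.6, 20.5, 19.0 and 20.2 FPKM with gemcitabine, a 6.22-fold rise (log2 change 2.25 ± 0.16, adjusted p = 9.44e-06). HBEGF, a heparin-binding ligand, was read at 5.74, 5.93, 5.77 and 5.73 FPKM in the controls and 14.1, 14.5, 12.96 and 14.4 FPKM with gemcitabine, and the receptor EGFR at 28.9, 28.3, 27.8 and 26.1 FPKM in the controls and 48.9, 56.4, 56.5 and 56.9 FPKM with gemcitabine. Every gemcitabine library lay above every control in these 3 genes, as the naming rule required. Feedback genes of the MAPK pathway split, with 11 of 27 higher and 6 lower. The phosphatases DUSP5 and DUSP10 rose from 21.4 ± 0.976 to 53.2 ± 4.72 FPKM and from 1.38 ± 0.169 to 4.10 ± 0.296 FPKM, while DUSP6 fell from 9.59 ± 0.599 to 6.32 ± 0.562 FPKM and the inhibitor SPRY2 from 29.7 ± 1.12 to 14.5 ± 0.917 FPKM.

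Binding proteins of insulin-like growth factor also rose, in a list with 10 of 18 tested members higher and 5 lower. IGFBP4 was read at 53.2, 58.6, 57.0 and 54.3 FPKM in the controls and 329.5, 231, 229.6 and 219 FPKM with gemcitabine, a 4.52-fold rise (log2 change 2.14 ± 0.12, adjusted p = 2.59e-06). IGFBP6 was read at 5.83, 5.44, 7.17 and 5.91 FPKM in the controls and 29.4, 19.4, 19.4 and 17.3 FPKM with gemcitabine, and IGFBP1 rose from 2.93 ± 0.139 to 14.1 ± 1.56 FPKM. The receptor IGF1R fell from 12.3 ± 0.576 to 7.43 ± 0.395 FPKM. Of Wnt genes 10 of 40 tested members were higher and 14 lower. Among these 10, 4 passed the filter only through gemcitabine libraries, and among the 14 lower, 1 only through controls. The ligand WNT7B was read at 3.37, 3.65, 3.80 and 3.65 FPKM in the controls and 17.6, 12.98, 12.1 and 12.8 FPKM with gemcitabine, and the secreted antagonist SFRP1 at 10.04, 9.97, 10.1 and 9.51 FPKM in the controls and 34.3, 36.5, 36.6 and 35.7 FPKM with gemcitabine, so ligand and antagonist both rose. WNT5A rose from 0.712 ± 0.0410 to 3.11 ± 0.257 FPKM, the receptor FZD2 fell from 19.7 ± 2.18 to 8.99 ± 2.43 FPKM, LGR4 fell from 22.6 ± 0.648 to 12.5 ± 1.90 FPKM and TCF7L1, a repressor of targets, fell from 6.90 ± 0.272 to 2.37 ± 0.307 FPKM.

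In the Notch pathway 12 of 37 tested members were higher and 13 lower, and the paired ligands JAG1 and JAG2 moved apart, JAG1 rising from 11.99 ± 0.392 to 28.3 ± 0.883 FPKM and JAG2 falling from 16.4 ± 1.65 to 8.33 ± 2.59 FPKM. The receptor NOTCH3 was read at 3.14, 3.46, 3.13 and 3.05 FPKM in the controls and 1.09, 0.505, 0.597 and 0.724 FPKM with gemcitabine and the ligand DLL3 fell from 64.0 ± 2.05 to 36.3 ± 6.64 FPKM. In TGF-beta and BMP signalling 12 of 43 tested members were higher and 13 lower. Among these 13, 4 passed the filter only through controls and had to come out lower, and among the 12 higher, 1 passed only through gemcitabine libraries. NOG, noggin, a secreted antagonist of BMP, was read at 6.89, 7.55, 6.72 and 6.71 FPKM in the controls and 34.2, 24.5, 22.6 and 23.4 FPKM with gemcitabine, a 3.75-fold rise, while the ligand BMP4 was read at 2.70, 2.93, 2.87 and 3.09 FPKM in the controls and 0.373, 0.443, 0.420 and 0.383 FPKM with gemcitabine. BMP6 rose from 23.3 ± 0.774 to 44.8 ± 4.17 FPKM, and SMAD6, an inhibitor of BMP signalling that BMP itself induces, fell from 2.01 ± 0.219 to 0.620 ± 0.0312 FPKM. BMP4 and SMAD6 passed the filter only through controls, so their falls support nothing. Whether BMP signalling changed was not tested. ID1 rose from 21.7 ± 1.4996 to 39.2 ± 9.14 FPKM and ID3, a gene of the same kind, fell from 13.5 ± 0.783 to 8.58 ± 1.69 FPKM.

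Secreted and surface signals of inflammation were higher in 16 of 35 tested chemokine and cytokine genes and lower in 6. TNFRSF11B, osteoprotegerin, was read at 1.94, 2.15, 1.9997 and 2.15 FPKM in the controls and 8.71, 10.99, 11.5 and 11.4 FPKM with gemcitabine, the chemokine CXCL8 at 1.73, 2.04, 1.78 and 1.87 FPKM in the controls and 4.01, 8.74, 7.31 and 8.17 FPKM with gemcitabine and the cytokine LIF at 20.7, 21.0, 19.98 and 20.4 FPKM in the controls and 59.4, 45.6, 46.2 and 46.8 FPKM with gemcitabine. All 3 were higher in each gemcitabine library than in any control, as the naming rule required. CSF1 fell from 50.2 ± 1.30 to 32.4 ± 4.95 FPKM. Of angiogenic and other receptor tyrosine kinase genes 12 of 24 tested members were higher and 4 lower. Among these 12, 4 passed the filter only through gemcitabine libraries and had to come out higher, KDR included. KDR, a receptor of vascular growth factor, was read at 0.634, 0.555, 0.369 and 0.501 FPKM in the controls and 3.05, 3.68, 3.71 and 3.43 FPKM with gemcitabine, and its ligand VEGFC rose from 3.59 ± 0.247 to 8.42 ± 0.283 FPKM. The other 4 endothelial markers were nowhere above 0.0393 FPKM.

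G protein-coupled receptors and RGS proteins, which end their signals, were higher in 23 of 54 tested members and lower in 15. Among these 23, 5 passed the filter only through gemcitabine libraries, and among the 15 lower, 3 only through controls. RGS17 and RGS2 rose from 1.23 ± 0.129 to 7.89 ± 2.16 FPKM and from 1.34 ± 0.155 to 6.03 ± 1.01 FPKM, the adrenergic receptor ADRA1B from 1.99 ± 0.190 to 8.73 ± 1.98 FPKM and the oxytocin receptor OXTR from 1.04 ± 0.0980 to 4.90 ± 0.370 FPKM. Of ion channels 10 of 38 tested members were higher and 14 lower. ITPR3, a calcium release channel of the endoplasmic reticulum, was read at 14.7, 16.9, 14.1 and 13.2 FPKM in the controls and 73.0, 50.1, 50.7 and 48.2 FPKM with gemcitabine, a 3.76-fold rise, whereas the calcium channel genes CACNG4 and CACNA1H fell from 16.02 ± 0.603 to 7.25 ± 0.850 FPKM and from 11.1 ± 0.800 to 4.94 ± 1.36 FPKM. Neuronal and neuroendocrine genes fell more often than they rose (5 of 23 higher, 10 lower), with SV2A, a protein of synaptic vesicles, lower (from 8.99 ± 0.326 to 3.38 ± 0.227 FPKM) and SCG2, secretogranin, higher (from 2.84 ± 0.183 to 11.4 ± 1.75 FPKM). Mucins and glycosyltransferases were higher in 16 of 41 and lower in 8 (18 higher and 14 lower without gemcitabine replicate 1), and B3GNT5, which builds lacto-series glycolipids, rose from 3.99 ± 0.142 to 10.3 ± 2.16 FPKM.

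Genes of cell death were higher in 15 of 37 tested members of the BCL2 family list and lower in 2 (20 higher and 7 lower without gemcitabine replicate 1). BIRC5, survivin, which is also a protein of mitosis, rose from 9.98 ± 0.603 to 32.0 ± 0.320 FPKM, and CASP4 from 3.63 ± 0.115 to 6.78 ± 0.173 FPKM. BCL2L11, a pro-apoptotic member, fell from 5.18 ± 0.298 to 3.17 ± 0.464 FPKM. PANC-1 carries mutant p53, and of 34 tested p53 target genes 11 were higher and 5 lower (15 higher and 9 lower without gemcitabine replicate 1). AEN, an exonuclease, rose from 8.02 ± 0.183 to 14.9 ± 1.77 FPKM, and TP53INP1 fell from 2.86 ± 0.224 to 1.53 ± 0.445 FPKM.

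Non-coding genes were a small part of the table. Of 272 tested lincRNA genes 60 were higher and 84 lower, and of 344 antisense genes 72 and 87, against 20.7% and 24.0% of all tested genes. The antisense counts are near these shares. Without gemcitabine replicate 1 the counts were 76 and 104 for lincRNA and 94 and 107 for antisense genes, against 32.8% and 37.0% of all tested genes. Over all classes other than protein-coding, the largest falls called with and without gemcitabine replicate 1 were in AC136475.3 (from 3.47 ± 0.287 to 0.727 ± 0.279 FPKM), TM4SF1-AS1 (from 13.7 ± 1.37 to 4.66 ± 0.217 FPKM), AL451069.3 (from 5.19 ± 0.757 to 1.40 ± 0.310 FPKM) and TP53TG1 (from 7.50 ± 0.667 to 2.39 ± 0.318 FPKM). The largest rises were in AC002401.4 (from 1.252 ± 0.341 to 8.64 ± 0.596 FPKM), AL121772.3 (from 1.08 ± 0.253 to 5.73 ± 0.486 FPKM), AL157935.1 (from 1.82 ± 0.205 to 7.90 ± 0.447 FPKM) and TRBC2, a constant segment of a T cell receptor gene, which is a class of its own and not a non-coding RNA (from 2.42 ± 0.484 to 9.62 ± 1.46 FPKM). CD3E, a subunit of that receptor complex, had no read in any library. Without strand in the counting, TM4SF1-AS1 cannot be told from the gene it overlaps, TM4SF1.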

How the data were processed

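RNA from PANC-1 cells was isolated with the PureLink RNA Mini kit and poly-A enriched, per the labels' protocols. The submitters' processing notes name CASAVA, HISAT2 and the mouse build mm10, while all 58735 identifiers are human with the coordinates of GENCODE release 29 (GRCh38). The sources used here name no counting program and no strand setting. The authors deposited FPKM values with no stated counting error. All values were whole multiples of 1 read (tolerance 0.02), and read totals were recovered from them.

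The members, gene lists and naming rule were chosen with earlier results of these data known. Genes reaching an FPKM of 1 in 4 or more libraries were kept, and log2(FPKM + 1) was compared with limma 3.58.1 (R 4.3.3, trend and robust) with no covariate, with Benjamini-Hochberg adjustment over all 12508 genes and a threshold of 0.05. Named genes were, per list, up to 4 in each direction with the largest change among those called with and without gemcitabine replicate 1 and with no overlap. The 12 largest rises and falls over protein-coding genes, the 6 largest in FPKM, the 10 largest among transcription factors and the 4 largest outside the protein-coding class were added. Exceptions are marked as chosen after their values were seen, or are cell type markers. Genes whose symbol occurs more than once (31 tested) were counted but not named, and some genes the rule chose are not reported here. In data simulated for this comparison over 12508 genes, with 200 changed, 6, 76, 96 and 98% of genes changed by 1.25, 1.5, 2 and 4-fold were recovered, with 8 false calls among 12308 unchanged genes. The simulation drew each gene independently, with no GC trend in any library and far fewer changed genes than were called here. These rates may therefore not hold for the measured libraries. Same-numbered control and gemcitabine libraries deviated with correlations of -0.22, -0.38, 0.03 and 0.19, so the numbers were not used as pairs. No 2 libraries of a group agreed within sampling noise (lowest chi-square over its degrees of freedom 2.29). Alternatives were another pseudocount, filter, scaling (median-ratio, TPM), limma setting, gene set, a removed GC trend, limma-voom on the recovered reads, a replicate block and each library left out. Tables were made with Python 3.11.15.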

Additional observations from a re-analysis of the deposited data

Results flagged for a closer look

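For each gene named above, the 4 libraries of each group were searched for one that stood apart from the other 3 by Dixon's test, over 636 gene groups. Chance sets about 1 in 20 such groups apart. A library stood apart in 131 of them, and in 113 it was gemcitabine replicate 1. KRT19, for example, was read there at 305 FPKM against 197 to 203 FPKM in the other 3, and NT5E at 165 against 225 to 228 FPKM. Values are in FPKM.

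Gemcitabine replicate 1 was the highest of its group in matrix and protease genes: ADAMTS15 at 12.05, COL1A1 at 11.1, FN1 at 6.67, MMP2 at 54.6, MMP15 at 5.17, SDC1 at 80.7 and TIMP1 at 117. In adhesion and keratin genes it was so for BCAM at 5.97, CLDN3 at 14.1, CLDN4 at 104, ITGA3 at 194, KRT8 at 202, KRT18 at 233, KRT80 at 37.1, L1CAM at 54.4, PKP3 at 18.0, PPL at 87.1 and PXN at 58.9. The guidance genes read high were EPHA2 at 324, EPHB2 at 12.2, EPHB6 at 13.6, NTN1 at 2.99, PLXND1 at 28.6 and SEMA4G at 1.17. Those of the cytoskeleton, calcium binding and translation were ACTB at 1625, MYH14 at 3.90, S100A2 at 6.20, S100A16 at 89.5, TUBB at 367, RPS16 at 2459 and EIF6 at 111. Metabolic and transport genes were FTL at 1592, H6PD at 14.7, PC at 10.1, PCK2 at 21.3, PKM at 293, PYGB at 389, SLC7A5 at 214, SOD3 at 4.22, SPNS2 at 50.7, STEAP3 at 39.2, TKT at 64.6 and UPP1 at 121. Chaperone, lysosomal and stress genes were CTSF at 16.04, DDIT4 at 80.1, GAA at 15.2, GDF15 at 1035, GUSB at 26.5, HSPA1A at 60.1, HSPA1B at 26.9, HSPB1 at 165, PSAP at 2580.3, SMPD1 at 48.6 and ULK1 at 27.8. Regulators of transcription were BCORL1 at 8.67, DNMT1 at 18.9, FOSL1 at 220.0, HOXB6 at 29.9, ID1 at 52.8, LHX1 at 2.63, MAFK at 94.5, MLXIP at 12.02, NPAS2 at 29.1, RARG at 8.03, SOX12 at 28.8 and UHRF1 at 16.6, and signalling genes CACNA1H at 6.97, CACNG4 at 8.51, CD14 at 3.81, AMOTL2 at 13.7, CSF1 at 39.8, DLL3 at 46.3, IGFBP4 at 329.5, ITPR3 at 73.0, JAG2 at 12.2, LIF at 59.4, NOG at 34.2 and WNT7B at 17.6.

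The same library was the lowest of its group in genes of adhesion, matrix and guidance: CADM1 at 3.56, CEMIP2 at 4.41, DSC2 at 2.71, ITGA2 at 82.5, ITGA6 at 70.0, ITGB1 at 161, NRP1 at 12.3, P4HA1 at 19.4, PARD6B at 2.26 and SEMA3C at 11.5. Cytoskeletal and membrane genes read low were ANXA1 at 76.0, CALD1 at 9.84, CAV1 at 73.4, MAP2 at 3.28 and VIM at 176. Genes of metabolism, folding and translation were ACSL3 at 11.4, B3GNT5 at 7.13, ELOVL2 at 13.01, GCLC at 8.77, HSP90B1 at 90.6, IDH1 at 16.5, LPCAT2 at 6.16, MT-ND2 at 1055, PSME4 at 11.6, SAT1 at 46.9 and TPT1 at 32.5, and signalling genes EGFR at 48.9, ETV1 at 2.11, LGR4 at 9.68, RGS2 at 4.52, RGS17 at 4.69, STC1 at 21.9 and TGFB2 at 5.15.

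Of the other gemcitabine libraries, replicate 3 stood apart for NEO1 at 9.54 and SPRY2 at 13.2, and replicate 4 for TLE4 at 1.29. Control replicate 1 was high for ITGA2 at 38.5 and S100A6 at 345 and low for PSMB5 at 71.4. Control replicate 2 was high for LAMA4 at 1.46, MYH14 at 6.10, PKP3 at 4.52, QARS at 30.5 and TLE2 at 8.09 and low for IDS at 21.3. Control replicate 3 was high for GATA6 at 0.980 and LHX1 at 0.444 and low for COL4A1 at 0.112 and DDIT3 at 88.8. Control replicate 4 was high for ODC1 at 110.4 and low for S100A3 at 1.40.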

How the results depend on the processing

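With all 8 libraries 2595 genes were higher and 3007 lower, 401 and 133 of them by at least 2-fold (log2 change of 1). No named gene past the threshold turned direction under any alternative run, which the choice of named genes, with groups that do not overlap, largely fixes. These total counts moved by more than 1.5 times in these cases. With an FPKM of at least 5 in place of 1 there were 1544 higher, 1867 lower and 259 higher by 2-fold, among fewer genes. After removal of the GC trend 4603 were lower and 3652 higher. The 2-fold counts were 687 and 321 with a pseudocount of 0.1, 647 and 255 on the TPM scale, and 695 and 393 with limma-voom on the recovered reads, which called 2460 higher and 3258 lower. The cause of these shifts was not tested. Leaving out 1 library at a time gave 2189 to 4102 higher and 2452 to 4626 lower, 402 to 417 and 131 to 162 by 2-fold, and both upper counts of calls came without gemcitabine replicate 1. The fit with the replicate number as a block (pairing by number) called 2175 higher and 2464 lower, 402 and 133 by 2-fold, and libraries did not each correlate best with their own number.

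Of the named genes past the threshold, 4 had lost the call in at least 1 alternative. TLE1 had an adjusted p (limma) of 0.0768 with no filter and 0.0712 with the block, ITGA10 of 0.0645 with the block, ZEB1 of 0.0512 with no filter, and COL1A1 from 0.0528 to 0.0586 with no filter or without 1 of 5 libraries. The sign of a list median near 0 turned with the scaling or the library set in 16 lists, among them focal adhesion, glycolysis and AP-1 genes. Reads of 22152034 to 31642808 per library limit genes near 1 FPKM.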

Other observations

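Some gene groups belong to none of the themes above. Target genes of YAP and TEAD, the factors at the end of the Hippo pathway, were higher in 15 of 31 tested members and lower in 5 (19 higher and 10 lower without gemcitabine replicate 1). The junction protein AMOTL1 rose from 1.05 ± 0.106 to 5.09 ± 0.144 FPKM and IGFBP3, a binding protein of insulin-like growth factor, rose from 12.8 ± 0.301 to 24.9 ± 0.566 FPKM, while TGFB2, a ligand, fell from 11.4 ± 0.585 to 7.02 ± 1.26 FPKM and AMOTL2, a relative of AMOTL1, fell from 16.7 ± 0.700 to 11.8 ± 1.24 FPKM. Aldehyde dehydrogenases and retinoid enzymes were split evenly, 7 of 20 higher and 7 lower. DHRS9, a retinol dehydrogenase, rose from 0.336 ± 0.126 to 2.27 ± 0.184 FPKM, and ALDH6A1, a mitochondrial dehydrogenase of valine breakdown, fell from 2.40 ± 0.125 to 1.30 ± 0.229 FPKM. Of translation initiation and elongation factors 10 of 52 were higher and 18 lower (17 higher and 24 lower without gemcitabine replicate 1), with EIF6 rising from 47.2 ± 2.91 to 86.9 ± 16.3 FPKM and TPT1 falling from 83.2 ± 5.13 to 48.8 ± 10.9 FPKM.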
